A study of Mus musculus with 4 samples.

Results

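The 7 imprinted genes Mest, Peg10, Sgce, Nap1l5, Nnat, Plagl1 and Impact were followed through 6 stretches of the mouse genome on a CpG island array. The members were the 147 array probes, of 97651 in all, whose position in the files lay within the window of one of these genes. The windows were chromosome 6 from 30550000 to 30850000 (Mest), from 4500000 to 4900000 (Peg10 and Sgce) and from 58700000 to 59000000 (Nap1l5), chromosome 2 from 157000000 to 157500000 (Nnat), chromosome 10 from 12500000 to 13100000 (Plagl1) and chromosome 18 from 13000000 to 13250000 (Impact). The positions are those of the files, and the choice of windows takes them to be of mouse build mm8. The members hold 25 islands, an island being a run of at least 3 probes with neighbouring starts at most 500 bp apart, with 145 probes, and 2 probes of the Plagl1 window lay in no island. Over the array there were 14121 such islands.

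The cells were 2 embryonic stem cell lines that lack Parp-1, 210-58 and 226-47, each a clone derived from J1, together with J1 cells given the PARP inhibitor PJ34 and untreated wild type J1 cells. Parp-1 modifies proteins in the nucleus with chains of ADP-ribose, and PJ34 inhibits enzymes of this kind. The sources used here do not give its dose or the length of the treatment. Each of the 4 samples was put on 1 array, with DNA pulled down by an antibody against 5-methylcytidine (MeDIP) in Cy5 and whole sonicated DNA of the same cells in Cy3. The arrays read DNA, so neither the cell type nor the absence of Parp-1 was checked by expression. With so few arrays the precision is low, and values of single cultures carry no error between cultures.

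A genomic imprint is a stretch of DNA that is methylated on the copy from one parent and not on the other, and that keeps this state in the cells of the body. At the genes described here the methylated copy of the promoter island is the maternal one, laid down in the oocyte, and the gene is transcribed from the paternal copy. Mest encodes a protein of the alpha/beta hydrolase family and Peg10 a protein derived from a retrotransposon that is needed for the placenta. Sgce, which encodes epsilon-sarcoglycan, lies head to head with Peg10 and shares its island. Nap1l5 encodes a protein related to nucleosome assembly factors and lies in an intron of Herc3. Nnat, neuronatin, lies in an intron of Blcap. Plagl1 encodes a zinc finger transcription factor, and Impact a regulator of the kinase Gcn2 and so of translation.

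The promoters that could be matched by symbol are shown for their CG pairs, since methylation of such pairs is what the antibody reads. Whether the probes of the islands lie in these stretches was not examined. Of the genes other than Impact, 4 had an entry in the RefSeq promoter table for GRCm38.p6, which holds 250 bases before and 50 after a gene's start, while Peg10 and Sgce had none. Of the 3 entries for Mest the one with the most CG pairs was taken. They lie at chr6:30737800-30738099 (Mest, plus strand), chr6:58907077-58907376 (Nap1l5, minus strand), chr2:157559828-157560127 (Nnat, plus strand) and chr10:13090582-13090881 (Plagl1, plus strand) of that build, which is not the build of the array positions. Each is written 5′ to 3′ with its CG pairs in capitals.
Mest: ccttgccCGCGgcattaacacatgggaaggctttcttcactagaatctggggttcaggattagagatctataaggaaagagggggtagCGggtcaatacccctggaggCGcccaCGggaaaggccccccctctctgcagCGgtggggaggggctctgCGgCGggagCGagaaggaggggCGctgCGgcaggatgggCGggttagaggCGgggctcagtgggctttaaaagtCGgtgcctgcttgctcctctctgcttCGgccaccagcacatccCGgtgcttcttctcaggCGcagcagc
Nap1l5: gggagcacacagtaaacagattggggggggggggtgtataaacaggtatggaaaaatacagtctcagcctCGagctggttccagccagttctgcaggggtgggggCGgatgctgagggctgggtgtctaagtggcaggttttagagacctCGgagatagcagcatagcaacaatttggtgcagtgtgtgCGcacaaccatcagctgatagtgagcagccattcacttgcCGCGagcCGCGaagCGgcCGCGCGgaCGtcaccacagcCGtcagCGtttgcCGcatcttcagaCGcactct
Nnat: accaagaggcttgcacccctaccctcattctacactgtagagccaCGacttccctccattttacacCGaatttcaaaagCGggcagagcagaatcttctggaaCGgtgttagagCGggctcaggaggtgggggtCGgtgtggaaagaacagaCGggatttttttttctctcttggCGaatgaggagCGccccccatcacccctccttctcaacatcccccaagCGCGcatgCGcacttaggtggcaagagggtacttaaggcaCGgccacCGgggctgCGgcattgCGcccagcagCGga
Plagl1: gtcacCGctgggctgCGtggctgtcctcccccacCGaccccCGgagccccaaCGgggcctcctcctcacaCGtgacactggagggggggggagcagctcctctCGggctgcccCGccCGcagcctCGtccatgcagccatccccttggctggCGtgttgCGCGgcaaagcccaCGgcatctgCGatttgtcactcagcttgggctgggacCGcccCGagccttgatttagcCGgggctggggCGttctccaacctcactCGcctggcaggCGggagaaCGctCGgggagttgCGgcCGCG
Mest, Nap1l5 and Nnat had 17 CG pairs each and Plagl1 had 26, against a median of 7 over 32817 promoters, with fewer than 17 in 68.6% of these and fewer than 26 in 83.1%. The letters TGCCGC, the motif bound by the imprint factor Zfp57 when methylated, were found on either strand at 2 places in Mest, 2 in Nap1l5, 1 in Nnat and 1 in Plagl1. At least one match was held by 11.6% of all promoters and by 27.8% of the 8684 promoters with 20 or more CG pairs. Of the promoters shown, only that of Plagl1 falls in this last class.

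The values are log2 ratios of immunoprecipitated to whole DNA, centred on each array's median, so that 0 is the level of a typical probe, and an island's value is the mean over its probes. Within each window the island with the highest mean over the 4 arrays was taken as the most enriched one. The choice used the level on all 4 arrays. The names of these islands were compared with the GRCm38 gene table by spacing alone. With each most enriched island set on its gene's start, 14 of the other 19 islands of the windows lay within 1500 bp of an end or a start of a neighbouring gene. How many would match with the islands placed elsewhere was not examined, so this count is a description. In the Plagl1 window these were 6 of 7 islands, in that of Nnat 4 of 5, at Peg10 both and at Nap1l5 the single one. For example, the island next to that of Nnat lay 5.72 kb away and the start of Blcap lies 6.28 kb from that of Nnat, while the islands beside Peg10 lay 146.87 and 155.49 kb away, against 146.4 kb for Casd1 and 155.57 kb for Ppp1r9a. In the Mest window 1 of 2 islands matched, at Cep41, and in the Impact window neither of the 2 did, so the name of the Impact island rests on its window.

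The 6 most enriched islands were all strongly enriched in wild type cells, in PJ34 treated cells and in clone 226-47, and much less so in clone 210-58. Over the 6, clone 210-58 lay between -1.66 and 1.90, clone 226-47 between 3.49 and 4.50, PJ34 treated cells between 2.77 and 4.64 and wild type cells between 2.19 and 3.57. Clone 210-58 was the lowest array at each of them. Of their 37 probes, 36 were lower in clone 210-58 than in wild type, and all 37 were higher than in wild type both in clone 226-47 and after PJ34. These counts hold for median centring. With each array scaled by its median absolute deviation, the PJ34 difference from wild type at Nap1l5 was -0.038.

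**Figure D1:**
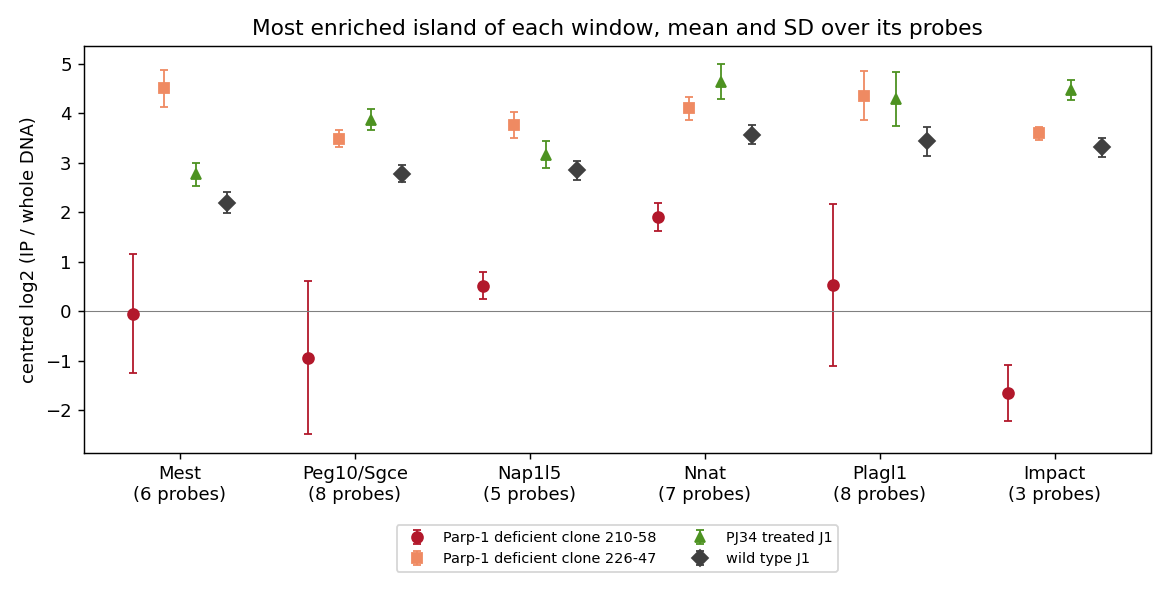
Centred log2 ratio of immunoprecipitated to whole DNA (y axis) at the most enriched island of each of the 6 windows (x axis) on the 4 arrays; points are means and bars SDs over the probes of an island, not over cultures. Clone 210-58 lay between -1.66 and 1.90 and below every other array at each island.

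At the Mest island, chromosome 6 from 30688022 to 30688551 with 6 probes, clone 210-58 had -0.048, clone 226-47 had 4.50, PJ34 treated cells had 2.77 and wild type cells had 2.19. All differences from wild type given here share its single array. The clones stood on opposite sides of it, by -2.24 in clone 210-58 and 2.31 in clone 226-47. That second difference was the highest positive one of clone 226-47 among the 14121 islands, and no other island was 2 or more above wild type in that clone. Single probes ran from 3.89 to 5.01 in clone 226-47, from 2.50 to 3.17 after PJ34 and from 1.88 to 2.47 in wild type, so the ranges did not overlap. In clone 210-58 they ran from -1.37 to 1.46.

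At the island shared by Peg10 and Sgce, chromosome 6 from 4697308 to 4698444 with 8 probes, clone 210-58 had -0.94, clone 226-47 had 3.49, PJ34 treated cells had 3.87 and wild type cells had 2.78. Clone 210-58 was lower than wild type by a log2 difference of -3.72 and clone 226-47 was higher by 0.71. The level in clone 210-58 was not even along the island. Its first 4 probes by position were between 0.21 and 0.51 and the other 4 between -3.33 and -1.03, with Cy5 not well above background at 2 of them, so that their values are uncertain. The other 3 arrays were flat there, with SDs over the probes of 0.18 (clone 226-47), 0.22 (PJ34) and 0.17 (wild type), against 1.55 in clone 210-58.

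The Nap1l5 island lies on chromosome 6 from 58836201 to 58836830 and has 5 probes. It had 0.52 in clone 210-58, 3.77 in clone 226-47, 3.17 in PJ34 treated cells and 2.84 in wild type cells. Clone 210-58 was lower in each of its probes, between 0.21 and 0.93, against 2.58 to 3.04 in wild type. The neighbouring island of the window, which matched Herc3 by spacing, had 1.36, 1.40 and 1.70 in clone 210-58, clone 226-47 and PJ34 treated cells and 1.26 in wild type cells. At that island, 75.21 kb away, clone 210-58 was 0.11 above wild type, against -2.33 at Nap1l5.

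The Nnat island, chromosome 2 from 157251405 to 157252100 with 7 probes, had 1.90 in clone 210-58, 4.10 in clone 226-47, 4.64 after PJ34 and 3.57 in wild type. Clone 210-58 was lower than wild type by -1.67 on the log2 scale, the smallest of the 6 differences in that clone. Its probes there lay between 1.59 and 2.25, well above the array's median, and those of wild type between 3.34 and 3.84. The island that matched Blcap had 0.29, -0.34 and 0.42 in clone 210-58, clone 226-47 and PJ34 treated cells, and -0.21 in wild type.

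The Plagl1 island, chromosome 10 from 12780667 to 12781550 with 8 probes, had 0.53 in clone 210-58, 4.35 in clone 226-47, 4.29 after PJ34 and 3.43 in wild type. Clone 210-58 differed from wild type by -2.90 and clone 226-47 by 0.92. A single probe, the third by position (12781000 to 12781044), went against the rest in clone 210-58, with 4.11 there and 3.44 in wild type. The last 5 probes were between -0.65 and -0.14 in clone 210-58, against 3.07 to 3.74 in wild type.

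The Impact island, chromosome 18 from 13116490 to 13116973, had 3 probes. Its value was -1.66 in clone 210-58, 3.60 in clone 226-47, 4.47 after PJ34 and 3.31 in wild type. The 3 probes gave -2.04, -1.91 and -1.01 in clone 210-58, and 3.25, 3.51 and 3.16 in wild type. The difference of clone 210-58 from clone 226-47, -5.25, was the lowest of all 14121 islands in the main setting. That rank depended on the background correction. With normexp background correction clone 210-58 differed from wild type by -3.01 at Impact and -1.30 at Mest. Clone 226-47 differed by 0.37 and 2.24, so the clones were further apart at Mest.

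**Figure D2:**
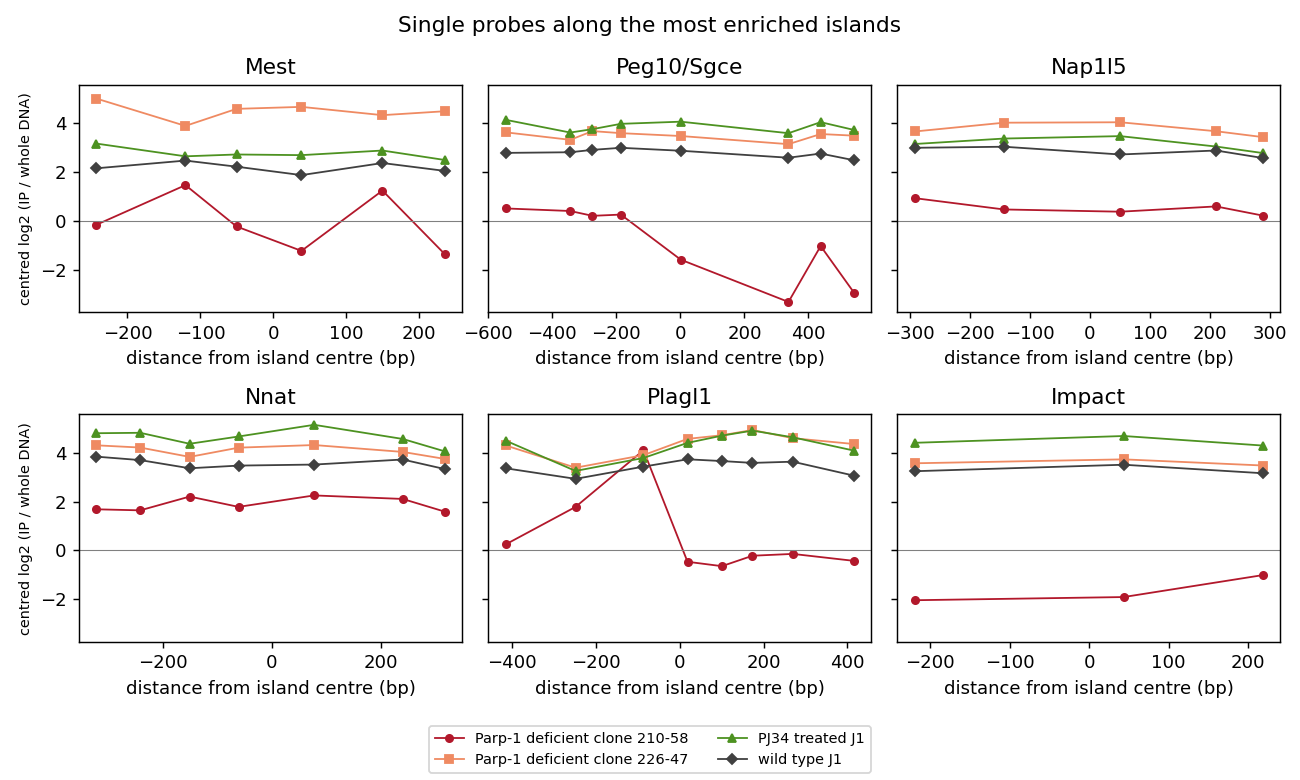
Centred log2 ratio of single probes (y axis) against distance from the island's centre in bp (x axis) at the 6 most enriched islands, 1 line per array. Clone 210-58 lies below the lines of clone 226-47, PJ34 and wild type at 36 of 37 probes, with 1 Plagl1 probe at 4.11 as the exception. Those lines are not all level: at Plagl1 clone 226-47 runs from 3.39 to 4.94 and PJ34 from 3.26 to 4.91.

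Set against each other, the clones differed at each of these 6 islands and at none of the other 19 by at least 1 on the log2 scale. Clone 210-58 was the lower one, with differences of -5.25 at Impact, -4.55 at Mest, -4.43 at Peg10, -3.82 at Plagl1, -3.25 at Nap1l5 and -2.20 at Nnat. A difference of at least 1 either way was seen at 2.39% of all islands. Clone 210-58 was lower than clone 226-47 by at least 1 at 138 of 14121 islands (0.977%) and higher by that much at 0 of the 25 islands and 1.41% of all. A difference of -2 or lower was seen at 7 islands, of which 6 were these. At the other 1175 islands with a mean of 2 or more over the 4 arrays the median difference was 0.42 with median centring, clone 210-58 being the higher one. That order depended on the scaling. With each array scaled by its median absolute deviation, the median differences of the 1175 from wild type were -0.33 in clone 210-58 and 0.14 in clone 226-47. There is 1 array of each clone, so these differences have no replicate check and no p-value, and the clones lay on different slides, so slide and clone cannot be told apart here.

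**Figure D3:**
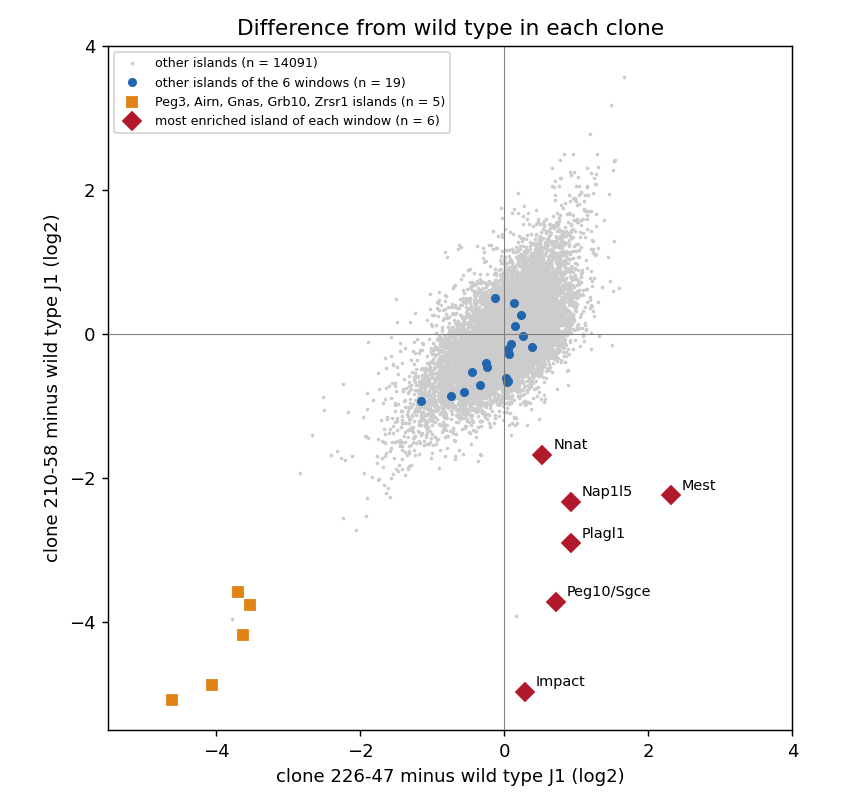
Difference from wild type (log2) in clone 210-58 (y axis) against that in clone 226-47 (x axis) for each of 14121 islands; both axes share the single wild type array. The 6 most enriched islands (red diamonds) lie at -1.67 or lower on the y axis and above 0 on the x axis, and 5 comparison islands (orange squares) are at -3.53 or lower on both.

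Against wild type, clone 210-58 was lower by at least 1 at 6 of the 25 islands, all of them the most enriched ones, beside 3% of all islands (424 of 14121). Among the 1175 other islands with a mean of 2 or more, 76 (6.47%) were that much lower, and their median difference was -0.08. That mean includes both clones, so islands that fell in both can be missing from the 1175. The comparison islands of Peg3, Airn and Zrsr1, with means of 1.30, 1.80 and 0.89, are missing in this way. The shares and medians of the 1175 against wild type therefore lean away from losses in either clone. Clone 210-58 and wild type shared a slide, so their comparison is one within a slide. Clone 226-47 was higher than wild type at all 6, by 0.29 (Impact), 0.53 (Nnat), 0.71 (Peg10), 0.92 (Plagl1 and Nap1l5) and 2.31 (Mest). Of the 1175 other islands, 9.62% were above wild type in clone 226-47, and their median difference was -0.53. The log ratios of clone 226-47 were less spread out over the array than those of the other samples, with an interquartile range over islands of 0.999, against 1.37 in wild type. With each array scaled by its median absolute deviation, 58.2% of the 1175 islands were above wild type in clone 226-47, with a median of 0.14, and the 6 islands had differences of 1.19 (Impact) to 3.45 (Mest). By at least 1, clone 226-47 was higher at 1 of the 25 islands, that of Mest, beside 0.963% of all islands. It was lower by that much at 1 island of the Plagl1 window, chromosome 10 from 12631455 to 12632051, which had 1.40 in clone 210-58, 1.17 in clone 226-47, 1.83 after PJ34 and 2.33 in wild type (2.96% of all islands were that much lower). Clone 226-47 and wild type lay on different slides, so slide and clone cannot be told apart in these values.

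Because the clones went apart, their mean describes neither. In limma's test of the clone mean against wild type with Benjamini-Hochberg adjustment over all islands, 2 of the 25 islands passed, both lower, beside 2.78% of all islands (393 of 14121), 1.59% lower and 1.19% higher. They were Impact, with a difference of -2.34 (SE 0.37, limma adjusted p = 3.07e-07), and Peg10, with -1.50 (SE 0.37, limma adjusted p = 0.00482). The differences of the clone mean at Plagl1 (-0.99), Nap1l5 (-0.70), Nnat (-0.57) and Mest (0.036) did not pass, with limma adjusted p of 0.36 or more. The SDs between the clones at the 6 islands ran from 1.56 to 3.71, far above the fit's SEs of 0.37 to 0.54, since the fit took its spread from the general trend over all islands, where the median SD was 0.207. Without clone 210-58 the Impact and Peg10 differences were 0.29 and 0.71, on the other side of 0, and after quantile normalization or intensity loess neither passed (limma adjusted p from 0.55 to 0.75; the SE at Impact was 1.63 after quantile normalization). Peg10 also failed to pass with normexp, scaling by the median absolute deviation, medians over probes or only probes well above background (limma adjusted p from 0.0918 to 0.414). With that scaling 2 of the 25 islands passed, beside 5.53% of all islands (781 of 14121). They were Impact and the island of the Plagl1 window that matched Stx11 by spacing (-0.78, SE 0.26, limma adjusted p = 0.0477).

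Against PJ34 treated cells, a comparison that uses the same clone arrays, 3 of the 25 islands passed, beside 1.35% of all islands, and all 3 were lower in the clone mean (0.404% of all). These were Impact, with -3.50 (SE 0.42, limma adjusted p = 3.74e-13), Peg10, with -2.59 (SE 0.42, limma adjusted p = 1.16e-06), and Plagl1, with -1.85 (SE 0.53, limma adjusted p = 0.0402). The same large SDs between the clones apply.

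PJ34 treated cells were above wild type at each of the 6 islands. The log2 difference was 1.16 at Impact, 1.09 at Peg10, 1.07 at Nnat, 0.86 at Plagl1, 0.58 at Mest and 0.32 at Nap1l5, with a median of 0.96. At the other 1175 islands with a mean of 2 or more the median was 0.28, and 72.7% of them were above wild type (35.1% with scaling by the median absolute deviation, with a median of -0.14). At least 1 separated PJ34 treated from wild type cells at 4 of the 25 islands, beside 3.7% of all islands, namely at Impact, Peg10 and Nnat (higher, beside 2.44% of all) and at an island of the Plagl1 window that matched Stx11 by spacing (lower, beside 1.25% of all). That island, chromosome 10 from 12654265 to 12654952, had -0.06 after PJ34 and 0.94 in wild type. The size of the higher values depended on the scaling of the arrays: scaling each array by its median absolute deviation left 0.65 at Impact and Peg10 and -0.038 at Nap1l5. PJ34 and wild type were on separate slides, which cannot be told apart from the treatment, and neither array had a replicate.

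Clone 226-47 and PJ34 treated cells shared a slide, and the order of these arrays at Peg10, Nnat and Impact depended on the scaling. Clone 226-47 was the higher array at Mest, by 1.73, and at Nap1l5, by 0.60, in 6 of 6 and 5 of 5 probes, and it was also higher there under quantile normalization, intensity loess, normexp and scaling by the median absolute deviation. At Plagl1 the difference was 0.061, smaller than the SD over its probes of 0.49 in clone 226-47 and 0.55 after PJ34. At Peg10, Nnat and Impact clone 226-47 differed from PJ34 by -0.38, -0.54 and -0.87 with median centring, but by 0.94, 1.02 and 0.54 with the arrays scaled by the median absolute deviation, so no order is given for these. The interquartile range over islands was 0.999 in clone 226-47 and 1.39 after PJ34, and the median difference at the 1175 other islands was -0.80 with centring and 0.38 with scaling.

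The other 19 islands of the windows did not share the pattern. Their differences from wild type ran from -0.93 to 0.51 in clone 210-58 (median -0.41), from -1.16 to 0.38 in clone 226-47 (median 0.04) and from -1.002 to 0.63 after PJ34 (median -0.10). Over all islands the medians were -0.05, 0.07 and -0.01. The difference between the clones at these 19 islands ran from -0.71 to 0.64. Probes within one island often differed by more than the arrays did, as in the island beside Mest on chromosome 6 from 30826520 to 30827129, where the SD over 5 probes was 1.90 in clone 210-58, 1.98 in clone 226-47, 2.68 after PJ34 and 1.76 in wild type.

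**Figure D4:**
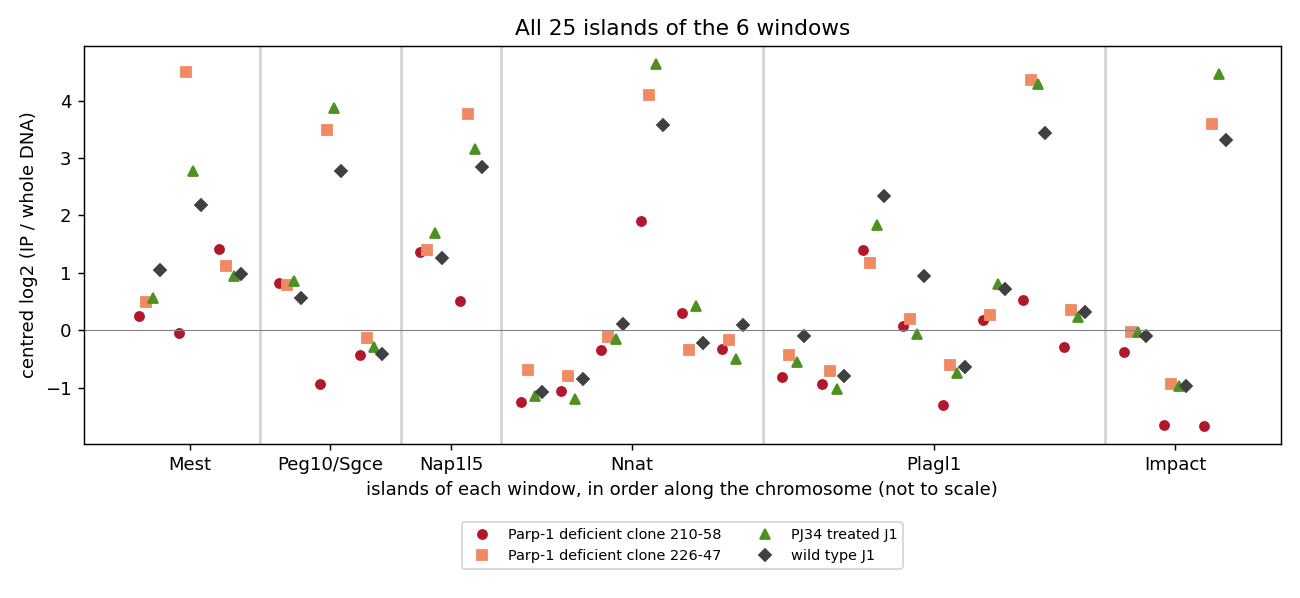
Centred log2 ratio (y axis) of all 25 islands of the 6 windows, in order along each window (x axis), on the 4 arrays. One island per window stands above 2 in clone 226-47, PJ34 and wild type with clone 210-58 below 2, and in the other 19 the clones are within 0.71 of each other.

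The whole DNA channel, as processed signal, was close to wild type in these windows. The median Cy3 difference from wild type over a window's probes was between -0.02 and 0.13 in clone 210-58, between -0.04 and 0.08 in clone 226-47 and between -0.07 and 0.13 after PJ34 on the log2 scale. For scale, chromosome 8 was at -0.44 in both clones and chromosome 11 at 0.49 in clone 210-58. With normexp background correction clone 210-58 was at 0.42 in the Impact window, 0.36 in the Plagl1 window and 0.71 at the Peg10 island. At that island its log ratio differed from wild type by -2.03 with normexp and by -3.72 from processed signals. At the most enriched islands themselves the Cy3 difference of processed signals in clone 210-58 was highest at Peg10, at 0.26, and between 0.06 and 0.11 at the others. The low log ratios of clone 210-58 came with a low Cy5 signal: at Impact the median processed Cy5 intensity was 215 in clone 210-58, 11358 in clone 226-47, 17223 after PJ34 and 8628 in wild type, while Cy3 was 1135, 1179, 1048 and 1092. At Mest Cy5 was 593, 14441, 4172 and 3119 in the same order of arrays.

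A different picture in clone 226-47 was given by 5 other imprinted islands methylated on the maternal copy. The islands of the Peg3, Igf2r and Airn, Gnas, Grb10 and Zrsr1 loci were picked because earlier results of these arrays had shown them lower in both clones, so they serve as a description only. Of the 13 islands in the windows of these loci, the one with the highest mean over the 4 arrays was taken at each of the 5, and the other 8 were left out. The 5 lay between -1.98 and 0.022 in clone 210-58, between -1.16 and 0.11 in clone 226-47, between 3.80 and 4.61 after PJ34 and between 2.89 and 3.65 in wild type. Their differences from wild type were -5.09 to -3.58 in clone 210-58 and -4.61 to -3.53 in clone 226-47, and the clones differed from each other there by -0.82 to 0.11. The 6 islands of Mest, Peg10, Nap1l5, Nnat, Plagl1 and Impact thus had low values in the same clone as these 5, but high values in clone 226-47, where the 5 were low. After PJ34 the differences from wild type were 0.61 to 1.003 at the 5 islands, against 0.32 to 1.16 at the 6.

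Outside the windows, the island most like the 6 by Euclidean distance over the 4 arrays from their mean profile lay on chromosome 7 from 143104693 to 143106020 (8 probes). It had -0.36 in clone 210-58, 3.72 in clone 226-47, 4.59 after PJ34 and 3.55 in wild type, against means of 0.049, 3.97, 3.87 and 3.02 over the 6. Its distance was 1.02. It was also the seventh island with a difference between the clones of -2 or lower, at -4.08. The pattern was thus not confined to the 6 islands, and whether this island belongs to an imprinted gene was not examined here. The next nearest was an island of chromosome 4 (8849186 to 8849567) at a distance of 2.55, followed by one of chromosome 12 (106336487 to 106336814) at 2.58, and at these both clones were lower than wild type.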

How the data were processed

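Per the labels' protocols, DNA was extracted with phenol and chloroform and sonicated, whole DNA was labelled with Cy3 and immunoprecipitated DNA with Cy5, with no dye swap. Agilent Feature Extraction 10.7.3.1 made the deposited intensity columns per the file headers (9.1 per the submitters' processing notes), subtracting background and applying a linear dye factor to each channel. The deposited value table holds a ratio per spot, which equals processed Cy5 over Cy3 within a relative 2.13e-08. Other deposited columns used were flags. The sources used here do not give the genome build.

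Processed Cy5 was divided by Cy3, put on the log2 scale with no pseudocount, and each array's median was set to 0. Control spots, 442 probes without a position and 30 with an outlier flag were left out, and 0 were saturated. Cy5 was well above background for 91.3% to 98.0% of probes. The 14121 islands were fitted with limma 3.58.1 in R 4.3.3 (lmFit, eBayes with trend), 2 clones against 1 wild type array, with 1 residual degree of freedom and a threshold of 0.05; arrays without replicates were compared by a size of 1. P-values rest on the spread between these clones as a trend over all islands, and assume that wild type cells vary alike. In the main setting the prior degrees of freedom were infinite, so an island's own spread between the clones had no weight. The fit was tested on simulated data. Named were the most enriched island of each window, islands with a mean of 2 or more, islands called, and those past 1 after PJ34. The members, lists and comparison islands were chosen with earlier results of these data known; the differences of single clones from wild type and of clone 226-47 from PJ34 under other settings, the 1175 islands under other scalings, and the naming of the Plagl1 island at 12631455, were added after their values were seen. Alternatives tried were quantile normalization, intensity loess, normexp, scaling, medians over probes, other island definitions, a background filter, the value table and leaving out a clone.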

Additional observations from a re-analysis of the deposited data

Results flagged for a closer look

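At the most enriched island of each window the 2 Parp-1 deficient clones lay on opposite sides of wild type, clone 210-58 below and clone 226-47 above. The difference of clone 210-58 from clone 226-47 was -4.55 at Mest and -4.43 at Peg10. It was -3.25 at Nap1l5 and -2.20 at Nnat. It was -3.82 at Plagl1 and -5.25 at Impact. With 1 array of each clone, these differences were not tested.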

How the results depend on the processing

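The differences of single clones from wild type kept their direction at all 6 most enriched islands under the 9 other settings run for them (8 for Impact, which has 3 probes and so no value with a minimum of 5). The wider probe gap, the minimum of 5 probes and the value table left these values unchanged, so they were no check of them. The background filter changed only Peg10. In clone 210-58 they ran from -5.16 (Impact) to -1.25 (Nnat), and in clone 226-47 from 0.29 (Impact) to 3.45 (Mest). Their sizes were less stable than their direction. In clone 210-58 the smallest came with intensity loess or normexp. They were -2.92 at Impact, -2.03 at Peg10, -1.74 at Plagl1, -1.31 at Nap1l5 and -1.30 at Mest. The main setting gave -4.96, -3.72, -2.90, -2.33 and -2.24 in the same order. The test of the clone mean was less stable. Of the 25 islands, 2 passed in the main setting. With scaling by the median absolute deviation 2 of 25 passed (5.53% of all islands), Impact and the island of the Plagl1 window that matched Stx11. With normexp or medians over probes 1 of 25 passed (3.02% and 2.14% of all islands), Impact. With only probes well above background 1 of 24 passed (3.87% of all), also Impact, and with a minimum of 5 probes, which removes Impact, 1 of 22 (2.89% of all), Peg10. After quantile normalization and after intensity loess 0 passed in limma, with 5 of 25 in each at an unadjusted p under 0.05, beside 19.3% and 13.4% of all islands. Of all islands, 27 and 0 passed there. Peg10 no longer passed after quantile normalization (-1.20), intensity loess (-0.87), normexp (-0.66), scaling by the median absolute deviation (-1.03), medians over probes (-1.24) or the background filter (-1.19), and Impact after quantile normalization (-1.995) and loess (-1.27). Medians over probes turned Mest to -0.014. With 1 clone left out, the difference ran from -2.24 to 2.31 at Mest, -3.72 to 0.71 at Peg10, -2.33 to 0.92 at Nap1l5, -1.67 to 0.53 at Nnat, -2.90 to 0.92 at Plagl1 and -4.96 to 0.29 at Impact, with no test, since no residual degree of freedom is left; a count of calls could not be made.

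After PJ34, 4 islands were past 1 in the main setting, 1 after quantile normalization (2.79% of all islands), 1 with normexp (0.701%), 0 after loess (0.46%) or scaling (2.95%), and 9 at a size of 0.5 (22.6%). Quantile normalization gave 0.78 at Peg10, 0.68 at Nnat and 0.79 at Impact, and normexp 1.004 at Impact. Intensity loess gave 0.098 at Mest, 0.35 at Peg10, 0.066 at Nap1l5, 0.59 at Nnat, 0.29 at Plagl1 and 0.58 at Impact. Scaling gave 0.26 at Mest, 0.65 at Peg10, -0.038 at Nap1l5, 0.54 at Nnat, 0.37 at Plagl1 and 0.65 at Impact. At a size of 0.5 the clones differed at 11 of the 25 islands (6 in the main setting), beside 24.3% of all. Clone 226-47 minus PJ34, below 0 at Peg10, Nnat and Impact in the main setting, was 0.40 and 0.28 at Peg10 and Nnat after quantile normalization, 0.21 and 0.0026 after loess, and 0.94 and 1.02 with scaling, where Impact had 0.54. With normexp the Cy3 difference of clone 210-58 was 0.36 in the Plagl1 and 0.42 in the Impact window. The cause of these shifts was not tested. No paired analysis was possible because the labels give no replicate numbers, and slide as a block left no residual degree of freedom.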

Other observations

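The 2 probes of the Plagl1 window that belong to no island lie on chromosome 10 from 13013975 to 13014151. They had 1.01 and -0.36 in clone 210-58, 1.08 and 0.22 in clone 226-47, 1.16 and 0.29 after PJ34, and 1.52 and 1.01 in wild type, so wild type was the highest array at both. With normexp background correction the Cy3 difference of clone 210-58 from wild type at the most enriched islands was 0.71 at Peg10 and 0.38 at Nap1l5, against 0.26 and 0.066 from processed signals.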
